A study of Oryza sativa with 16 samples.

Results

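Transcript levels of rice (Oryza sativa) shoot apical meristems were compared between stage 7 and stage 4 in the d1 mutant and in wild type (WT). The mutation is the d1-1 allele of RGA1, which encodes the heterotrimeric G protein alpha subunit. The 4 groups were d1 at stage 7, d1 at stage 4, WT at stage 7 and WT at stage 4, with 2 libraries each, so 8 of the 16 libraries sequenced. All plants were 3 months old, had grown for 100 days in a greenhouse and are labelled as at panicle initiation. The labels do not define the stage numbers. The authors' table holds 1 combined FPKM value per gene and group (fragments scaled to transcript length and library size), so no value below has an SD. A gene's step is its log2(FPKM + 1) at stage 7 minus that at stage 4, taken within d1 and within WT. Steps were computed for the 19757 of 34302 rows that had at least 1 FPKM in at least 2 of the 8 columns of the table.

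At flowering the shoot apical meristem of a grass stops making leaves and becomes an inflorescence, here the panicle. It forms branch meristems, then spikelet meristems, and these form florets. KNOX homeobox genes such as OSH1 keep meristem cells undifferentiated, SPL and LAX1 genes act on branching, and MADS-box genes of classes A to E set the identity of the floral organs. Cytokinin promotes meristem activity: LOG enzymes activate it and CKX enzymes degrade it. The G protein alpha subunit acts at the membrane with beta and gamma subunits, and its loss gives the dwarf plants for which the d1 mutant is named.

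RGA1, the gene that carries the mutation, was checked before the others. RGA1 (OS05G0333200, chromosome 5) had 24.08 FPKM at stage 7 against 23.6 FPKM at stage 4 in d1, against 29.8 FPKM at stage 7 against 30.2 FPKM at stage 4 in WT. It was lower in d1 at both stages and its steps were 0.03 in d1 and -0.02 in WT. The meristem label was checked against OSH1, which had 234 to 478 FPKM in the 4 columns. The FPKM of a column summed to between 621238 and 670519. The labels state about 40 M reads of 150 bases for each library, but the depth behind a value is unknown. In bulk tissue, fewer cells of a type and less RNA per cell cannot be told apart. The deposited identifiers come without names, so a name is used only where NCBI's gene table lists it on the same chromosome near the expected place, which held for 110 rows; 98 of them passed the filter.

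Most genes had close to the same level at both stages, and the larger steps were often shared by the genotypes. The median step over all genes was 0.00 in d1 and -0.01 in WT. Steps of at least 1 upward were found for 402 genes in d1 (2.03% of the genes kept) and 447 in WT (2.26%). Steps of at least 1 downward were found for 307 genes in d1 (1.55%) and 208 in WT (1.05%). Of these, 252 genes (1.28%) stepped up in both genotypes and 112 (0.567%) stepped down in both. The 252 make up 62.7% of the upward steps in d1 and 56.4% of those in WT, and the 112 make up 36.5% of the downward steps in d1 and 53.8% of those in WT. Across genes the steps in d1 and in WT, which share no column, had a Pearson's r of 0.643 and a Spearman's rho of 0.512. Genes are not independent replicates, so these describe the columns only. The threshold of 1 cuts through a continuous range, with 75 genes whose smaller step was within 0.1 above it and 88 within 0.1 below it.

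**Figure D1:**
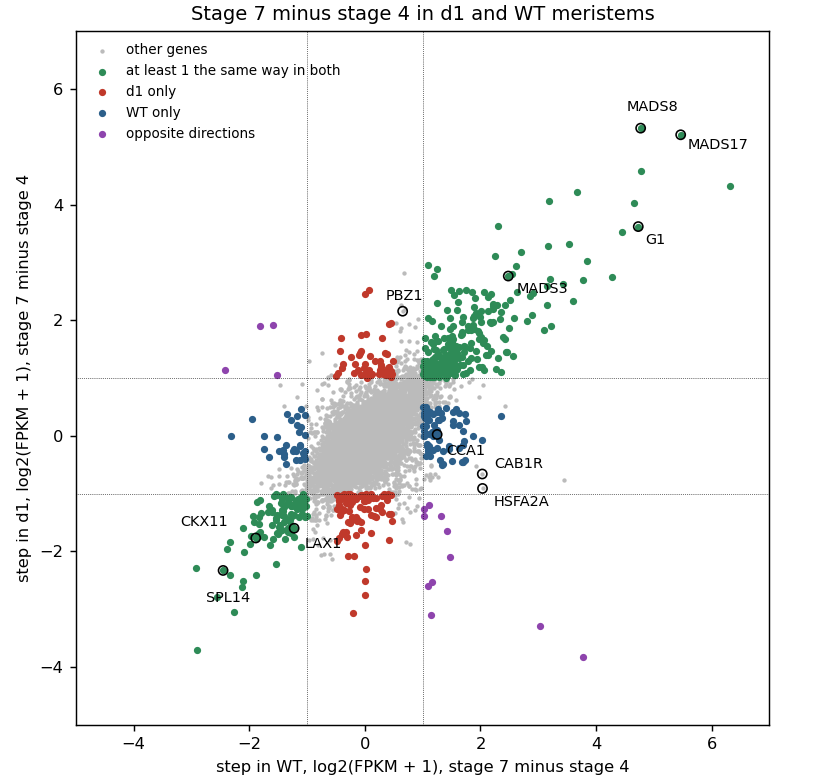
The step of each of the 19757 genes in WT (x axis) and in d1 (y axis), in log2(FPKM + 1), stage 7 minus stage 4. Dotted lines mark steps of 1 and -1. Points at the upper right are the 252 genes that stepped up in both genotypes, with MADS8, MADS17 and G1 among the farthest out, and the points at the lower left are the 112 that stepped down in both.

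A limma fit on all 8 columns, with genotype as a block, tested the step over both genotypes (the shared step). It called 377 genes higher at stage 7 (1.91%) and 389 lower (1.97%), at an adjusted p under 0.05 (Benjamini-Hochberg over all genes kept). All 766 (3.88%) had the same sign in d1 and WT, and 174 of the 252 shared upward steps and 95 of the 112 shared downward steps were among them. The fit weighs the mean of the d1 and WT steps against how far stage differences vary between the genotypes. Its calls therefore favour genes with like steps, and this agreement is not separate support for shared steps. The errors given as ± are moderated SEs of this fit, which rest on how far stage differences vary between the genotypes and not on the spread between plants or libraries. The number called varied with the columns used: without stage 1 it was 160 higher and 157 lower, and from the columns of stages 4 and 7 alone it was 760 higher and 671 lower. In what follows, rose and fell are used only for genes that this fit called.

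Genes that stepped up in both genotypes were mostly at their highest at stage 7. Of the 252, 236 had their highest value of the 4 stages at stage 7 in both d1 and WT, which their choice by a step up to stage 7 favours. In 88 of the 252 the stage 4 value was under 1 FPKM in both genotypes, and in 63 the values at stages 1, 2 and 4 were all under 1 FPKM in both. The summed FPKM of the 252 was 1.01% of the column total at stage 7 and 0.291% at stage 4 in d1, and 0.887% at stage 7 and 0.229% at stage 4 in WT. The choice of genes by their step fixes the direction of these shares.

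The 112 genes that stepped down in both genotypes had more mixed courses before stage 4. Their highest value was at stage 4 in both genotypes for 42 genes, at stage 1 for 30 and at stage 2 for 17. Their lowest value was at stage 7 in both for 75. Only 18 of them were under 1 FPKM at stage 7 in both genotypes, so most were still detected there. A minority of the genes with shared steps had a neighbouring row that stepped with them, though a larger share than among the other genes kept. Of the genes that stepped up in both, 29 (11.5%) had such a gene in the next or previous row by identifier, against 1.26% of the other genes kept. For those that stepped down it was 14 (12.5%) against 0.677%. Overlapping or near-identical neighbours may share reads, and this was not tested. With the same threshold and both genotypes, 345 genes stepped up and 116 down between stages 2 and 4, and 92 up and 23 down between stages 1 and 2. These intervals share the columns of stages 4 and 2, and the differences between them were not tested.

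**Figure D2:**
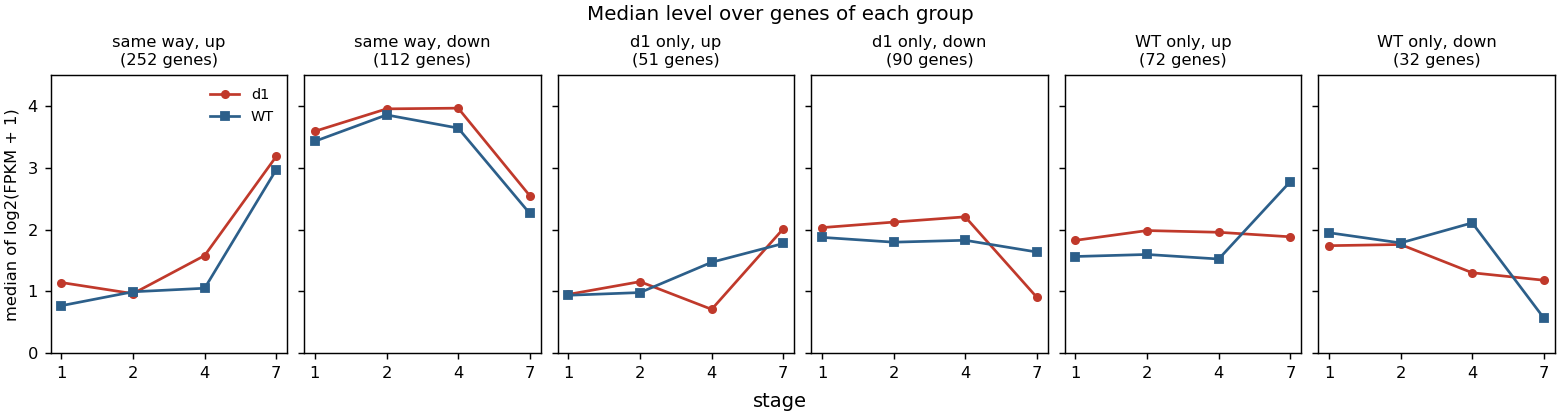
Median of log2(FPKM + 1) over the genes of 6 groups at stages 1, 2, 4 and 7, in d1 (circles) and WT (squares). In the first 2 panels both genotypes move together between stages 4 and 7, and in the other 4 panels 1 genotype moves; the groups were chosen by these steps, so the stage 4 and stage 7 points are a description.

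Of the floral organ identity genes, MADS8, MADS17 and MADS3 could be named and tested. These 3 were under 1 FPKM at stages 1, 2 and 4 and present at stage 7 in both genotypes. MADS8 (OS09G0507200, chromosome 9), a SEPALLATA-type gene needed for floret organs, had 39.0 FPKM in d1 and 26.3 FPKM in WT at stage 7, and was listed at 0 at stage 4 in both. MADS17 (OS04G0580700, chromosome 4), an AGL6-type gene, had 43.1 FPKM at stage 7 against 0.192 FPKM at stage 4 in d1, and 49.8 FPKM at stage 7 against 0.150 FPKM at stage 4 in WT. MADS3 (OS01G0201700, chromosome 1), an AGAMOUS-type gene of stamens and carpels, had 5.99 FPKM at stage 7 against 0.028 FPKM at stage 4 in d1, and 4.66 FPKM at stage 7 against 0.014 FPKM at stage 4 in WT. For each of the 3 genes both stage 7 values lay far above both stage 4 values. The shared steps were 5.05 ± 0.18 for MADS8 (adjusted p = 0.0017, limma), 5.34 ± 0.12 for MADS17 (adjusted p = 0.00053, limma) and 2.62 ± 0.16 for MADS3 (adjusted p = 0.0047, limma). MADS17 had the largest mean step of all called genes with at least 5 FPKM in one of the 4 columns.

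The other members of the MADS-box list that could be named were not called. MADS14, an APETALA1-type gene that marks the switch to an inflorescence, had 31.8 FPKM at stage 7 against 41.6 FPKM at stage 4 in d1, and 32.6 FPKM at stage 7 against 43.1 FPKM at stage 4 in WT, with a shared step of -0.38 ± 0.11 (adjusted p = 0.15, limma). MADS47, of the SVP type, was under 1 FPKM in all 4 columns. Of the 5 members tested, 3 rose and 0 fell, beside 1.91% and 1.97% of all genes kept. The median shared step of the 5 was 2.62, beside -0.0037 for all genes. These 5 come from 27 identifiers written for the list. Most of the others, such as MADS1, MADS7 and MADS58, have no row of their own in the deposited data, so the 5 do not stand for the family.

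G1 (OS07G0139300, chromosome 7), an ALOG gene that gives the sterile lemmas of the rice spikelet their identity, rose with MADS8, MADS17 and MADS3. It had 87.9 FPKM at stage 7 against 6.23 FPKM at stage 4 in d1, and 103 FPKM at stage 7 against 2.91 FPKM at stage 4 in WT. The stage 7 value was 14.1 times the stage 4 value in d1 and 35.3 times in WT, and the shared step was 4.17 ± 0.30 (adjusted p = 0.0059, limma). Unlike the MADS-box genes it was already present earlier, with 15.7 and 13.3 FPKM at stages 1 and 2 in d1 and 20.4 and 10.03 FPKM in WT, so stage 4 was its lowest point in both. Other ALOG genes were lower at stage 7 without being called. G1L2 had 44.2 FPKM at stage 7 against 64.2 FPKM at stage 4 in d1, and 49.5 FPKM at stage 7 against 65.1 FPKM at stage 4 in WT (shared step -0.46 ± 0.09, adjusted p = 0.061, limma). TAW1, which delays the change of branch meristems into spikelets, had 4.35 FPKM at stage 7 against 10.4 FPKM at stage 4 in d1, and 3.38 FPKM at stage 7 against 5.35 FPKM at stage 4 in WT (shared step -0.81 ± 0.18, adjusted p = 0.081, limma).

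Of 23 identifiers written for the panicle branching and spikelet list, 7 had a checked name and were tested. Among these 7, SPL14, SPL7 and LAX1 fell, G1 rose and 3 were not called. Over all genes kept, 1.97% fell and 1.91% rose. SPL14 (OS08G0509600, chromosome 8), a regulator of branch number and plant form, fell to 153 FPKM at stage 7 against 772 FPKM at stage 4 in d1, and to 177 FPKM at stage 7 against 977 FPKM at stage 4 in WT. The stage 4 value was 5.06 times the stage 7 value in d1 and 5.50 times in WT, and the shared step was -2.39 ± 0.12 (adjusted p = 0.0027, limma). SPL14 was already lower at stage 4 than at stages 1 and 2, where it had 1635 and 1558 FPKM in d1 and 1917 and 1428 FPKM in WT. SPL7 (OS04G0551500, chromosome 4), of the same family, had 32.3 FPKM at stage 7 against 77.2 FPKM at stage 4 in d1, and 37.0 FPKM at stage 7 against 61.5 FPKM at stage 4 in WT (shared step -0.98 ± 0.13, adjusted p = 0.025, limma). LAX1 (OS01G0831000, chromosome 1), a bHLH gene needed to start axillary meristems, had 50.5 FPKM at stage 7 against 155 FPKM at stage 4 in d1, and 55.7 FPKM at stage 7 against 132 FPKM at stage 4 in WT (shared step -1.41 ± 0.21, adjusted p = 0.034, limma).

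The further SPL genes whose names could be checked and the spikelet gene FZP were not called. SPL2, SPL11, SPL12 and SPL16 had steps between -0.35 and 0.33 in d1 and WT. FZP, which commits the spikelet meristem to florets, had 3.60 FPKM at stage 7 against 4.04 FPKM at stage 4 in d1, and 2.90 FPKM at stage 7 against 3.13 FPKM at stage 4 in WT, and was at or below 0.051 FPKM at stages 1 and 2. SPL7 was not called without stage 1 (adjusted p = 0.060, limma) or with all expressed genes in the fit (adjusted p = 0.058, limma). LAX1 was not called without stage 1 (adjusted p = 0.070, limma) or with all expressed genes in the fit (adjusted p = 0.080, limma).

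Both KNOX genes that could be named fell. OSH1 (OS03G0727000, chromosome 3) had 251 FPKM at stage 7 against 478 FPKM at stage 4 in d1, and 234 FPKM at stage 7 against 476 FPKM at stage 4 in WT (shared step -0.97 ± 0.07, adjusted p = 0.0059, limma). OSH15 (OS07G0129700, chromosome 7) had 179 FPKM at stage 7 against 294 FPKM at stage 4 in d1, and 163 FPKM at stage 7 against 317 FPKM at stage 4 in WT (shared step -0.84 ± 0.09, adjusted p = 0.013, limma). Both had their highest value at stage 4 in both genotypes. At stage 1 OSH15 had 151 FPKM in d1 and 164 FPKM in WT, so its stage 7 level was above the stage 1 level in d1 and close to it in WT. WOX4, a homeobox gene of the meristem, stayed under 1 FPKM in every column and was not tested.

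**Figure D3:**
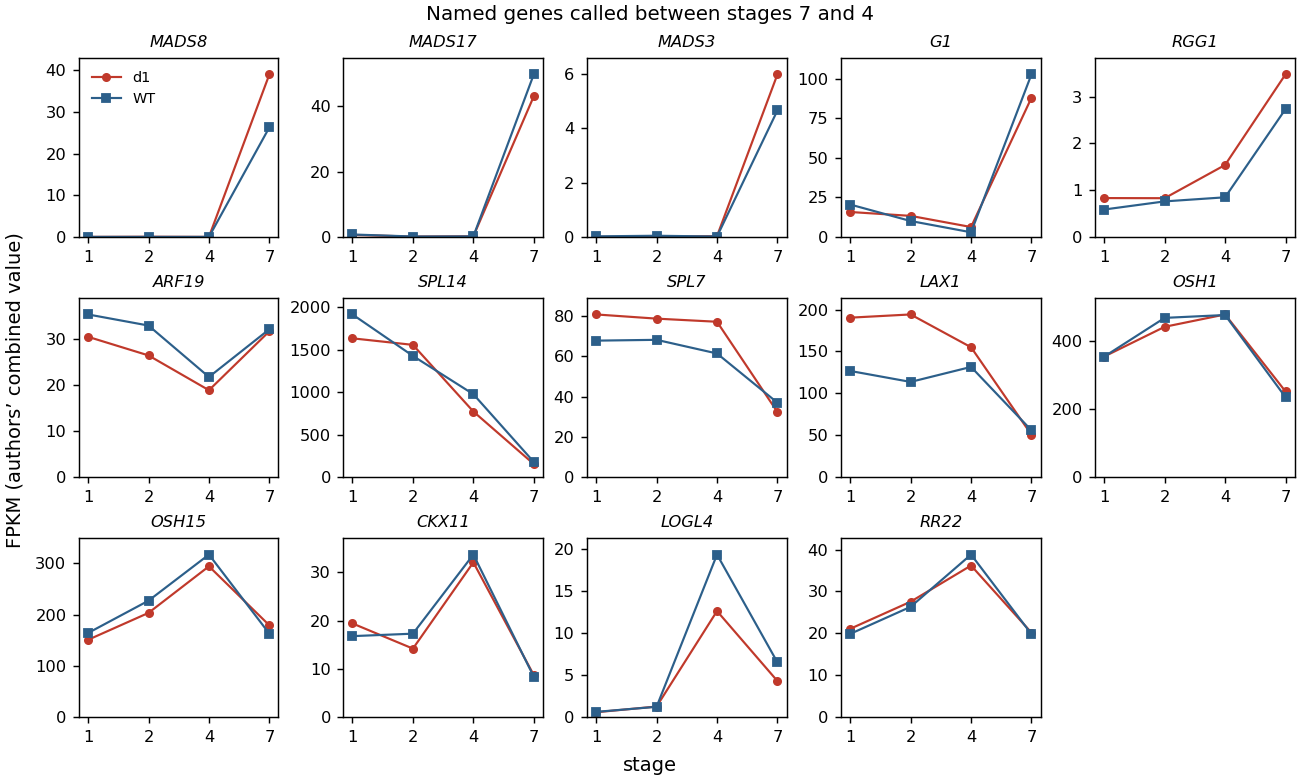
FPKM at stages 1, 2, 4 and 7 in d1 (circles) and WT (squares) for the 14 named genes called between stages 7 and 4, each panel with its own linear axis from 0. MADS8, MADS17 and MADS3 leave 0 only at stage 7, G1 and ARF19 are lowest at stage 4, and OSH1, OSH15, CKX11, LOGL4 and RR22 are highest at stage 4 in both genotypes.

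CKX11 and LOGL4, cytokinin genes with opposite enzyme roles, both fell. CKX11 (OS08G0460600, chromosome 8), a cytokinin oxidase that degrades the hormone, had 8.71 FPKM at stage 7 against 32.1 FPKM at stage 4 in d1, and 8.37 FPKM at stage 7 against 33.7 FPKM at stage 4 in WT (shared step -1.83 ± 0.12, adjusted p = 0.0049, limma). LOGL4 (OS03G0697200, chromosome 3), a LOG-like enzyme of cytokinin activation, had 4.29 FPKM at stage 7 against 12.6 FPKM at stage 4 in d1, and 6.51 FPKM at stage 7 against 19.3 FPKM at stage 4 in WT (shared step -1.40 ± 0.19, adjusted p = 0.025, limma). RR22 (OS06G0183100, chromosome 6), a type-B response regulator that activates cytokinin targets, had 20.2 FPKM at stage 7 against 36.2 FPKM at stage 4 in d1, and 19.8 FPKM at stage 7 against 38.8 FPKM at stage 4 in WT (shared step -0.88 ± 0.07, adjusted p = 0.0066, limma). Of 9 cytokinin members tested, 3 fell, 0 rose and 6 were not called, among them the primary response genes RR1, RR2 and RR5 and the receptor gene HK4. Over all genes kept, 1.97% fell and 1.91% rose. The 3 that fell were added after the list was first written, with earlier results of these data known. The count is therefore not a test of the list. Of the members first written, RR1 and RR2 were tested, with shared steps of -0.03 and 0.03. The median shared step of the 9 was -0.03. LOGL4 was not called with all expressed genes in the fit (adjusted p = 0.062, limma).

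Of the other hormone genes, 1 was called. ARF19 (OS06G0702600, chromosome 6), an auxin response factor, rose to 31.8 FPKM at stage 7 against 18.93 FPKM at stage 4 in d1, and to 32.2 FPKM at stage 7 against 21.8 FPKM at stage 4 in WT (shared step 0.63 ± 0.08, adjusted p = 0.023, limma). Without stage 1 its adjusted p was 0.064 (limma). It was the only one called of 8 auxin response members, a list added after the first lists were written. Over all genes kept, 1.91% rose and 1.97% fell, so 1 call does not set these members apart. IAA16, an auxin-responsive repressor gene, was lower at stage 7 in both genotypes without being called (shared step -0.71 ± 0.16, adjusted p = 0.083, limma). None of 4 auxin transport and synthesis members, 3 gibberellin members, 4 brassinosteroid members or 4 jasmonate members was called by limma. At an unadjusted p under 0.05 (limma) there were 3 of the 8 auxin response members and 1 auxin transport and synthesis member. There were also 3 gibberellin members, 0 brassinosteroid members and 0 jasmonate members, beside 3833 of all genes kept (19.4%). The receptor gene BRI1, for example, had 124 FPKM at stage 7 against 124 FPKM at stage 4 in d1, and 125 FPKM at stage 7 against 128 FPKM at stage 4 in WT.

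Among the G protein subunits a gamma subunit gene rose. RGG1 (OS03G0635100, chromosome 3) had 3.48 FPKM at stage 7 against 1.54 FPKM at stage 4 in d1, and 2.74 FPKM at stage 7 against 0.847 FPKM at stage 4 in WT (shared step 0.92 ± 0.15, adjusted p = 0.038, limma). It was not called under 4 of 8 alternatives, with adjusted p up to 0.085 (limma). RGB1, the beta subunit gene, had 52.1 FPKM at stage 7 against 48.9 FPKM at stage 4 in d1, and 49.3 FPKM at stage 7 against 48.7 FPKM at stage 4 in WT, and was not called.

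DNA replication genes were slightly higher at stage 7 in both genotypes, below the threshold of the test. MCM2, MCM3, MCM4, MCM5, MCM6 and MCM7, the subunits of the replicative helicase, had shared steps between 0.27 and 0.38. MCM5 had 112 FPKM at stage 7 against 86.0 FPKM at stage 4 in d1, and 99.3 FPKM at stage 7 against 76.1 FPKM at stage 4 in WT, with a shared step of 0.38 ± 0.07 and an adjusted p of 0.0501 (limma). Its adjusted p was 0.034 to 0.088 over the alternatives (limma). Of the 10 members of the cell division list, 9 had a higher value at stage 7 in both genotypes and 0 were called by limma, with a median shared step of 0.27 beside -0.0037 for all genes. At an unadjusted p under 0.05 there were 7 of the 10, beside 19.4% of all genes kept, and 32.8% of all genes kept had a higher value at stage 7 in both genotypes.

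Genes of meiosis and of the anther were described beside the floral organ genes, as markers of later reproductive cells. None of 7 meiosis members, which included PAIR1, PAIR2, PAIR3, MER3, SDS, DMC1A and SPO11-1, was called by limma, 0 of them had an unadjusted p under 0.05, and their shared steps lay between -0.31 and 0.14. Their summed level was 69.6 FPKM at stage 7 against 67.9 FPKM at stage 4 in d1, and 63.0 FPKM at stage 7 against 64.9 FPKM at stage 4 in WT. Of 7 anther members, 4 did not pass the filter, and of the 3 tested 0 were called by limma and 2, TIP2 and MSP1, had an unadjusted p under 0.05. UDT1, a bHLH gene of early tapetum development, had steps of -0.05 in d1 and 0.71 in WT. The tapetum genes TDR, EAT1 and PTC1 were at most 0.21 FPKM in any column. TIP2, a bHLH gene of the tapetum, had 1.32 FPKM at stage 7 against 0.506 FPKM at stage 4 in d1, and 1.26 FPKM at stage 7 against 0.574 FPKM at stage 4 in WT, and was not called (shared step 0.57 ± 0.15, adjusted p = 0.11, limma). MSP1, a receptor kinase gene that limits the number of sporogenous cells, had 85.7 FPKM at stage 7 against 101 FPKM at stage 4 in d1, and 85.3 FPKM at stage 7 against 97.4 FPKM at stage 4 in WT.

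**Figure D4:**
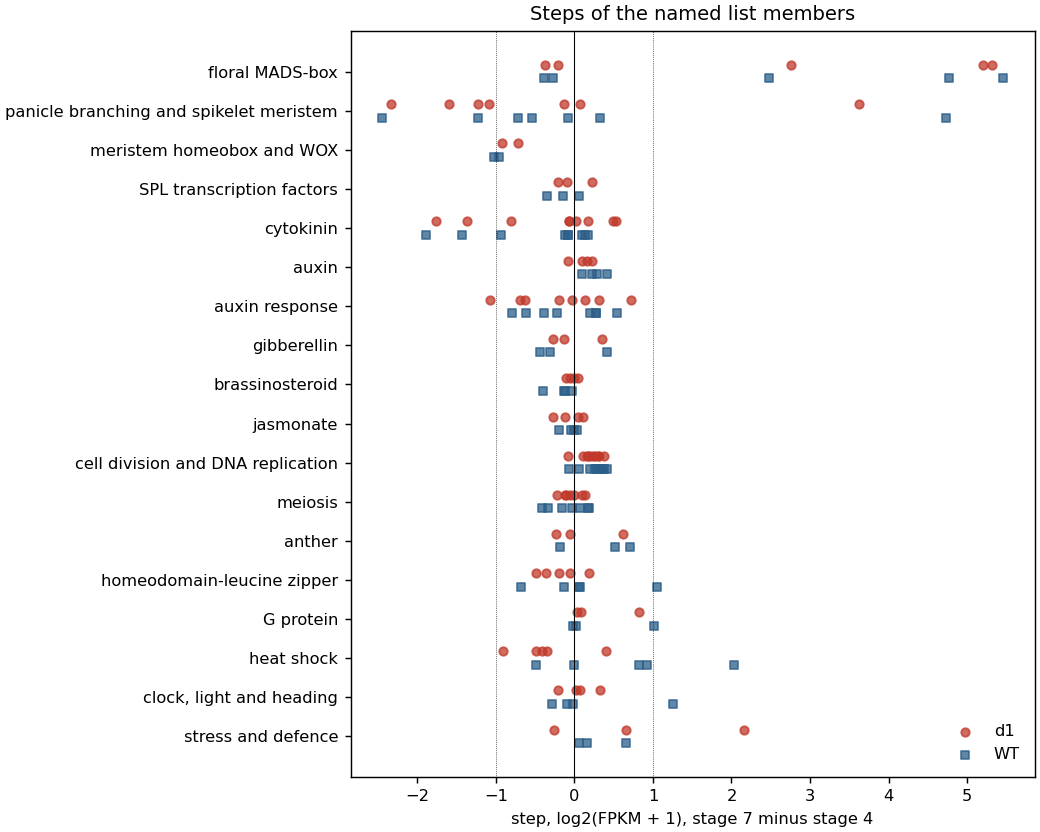
Steps (log2(FPKM + 1), stage 7 minus stage 4) of the named members of 18 gene lists, with d1 as circles above WT as squares. The MADS-box list reaches above 5 in d1 and in WT, and the cell division list clusters just above 0. The heat shock members are mixed: HSFA2A, HSP81-1 and HSP26.2 lie below 0 in d1 and above 0 in WT, and HSFC2B the other way. HSFA2D lies below 0 in both, and these differences were not tested.

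Genes without a checked name also took part. OS06G0317200 (chromosome 6) had 177 FPKM at stage 7 against 7.91 FPKM at stage 4 in d1, and 115 FPKM at stage 7 against 0.453 FPKM at stage 4 in WT (shared step 5.32 ± 0.64, adjusted p = 0.019, limma). It was at a higher level in d1 than in WT at both stages, and it was not called with all expressed genes in the fit (adjusted p = 0.055, limma). OS03G0400200 (chromosome 3) fell to 2.36 FPKM at stage 7 against 43.0 FPKM at stage 4 in d1, and to 3.83 FPKM at stage 7 against 35.3 FPKM at stage 4 in WT (shared step -3.31 ± 0.29, adjusted p = 0.0084, limma). OS09G0491532 (chromosome 9) had 30.6 FPKM at stage 7 against 217 FPKM at stage 4 in d1, and 27.3 FPKM at stage 7 against 165 FPKM at stage 4 in WT (shared step -2.67 ± 0.10, adjusted p = 0.0017, limma). This identifier was written down as SPL17 in the panicle branching and spikelet list, but that name could not be checked. Both genes that fell were higher still at stages 1 and 2.

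Taken over both directions, steps in a single genotype, meaning at least 1 in that genotype and under 0.5 in the other, were fewer than shared steps. In d1 only, 51 genes stepped up (0.258%) and 90 stepped down (0.456%). In WT only, 72 genes stepped up (0.364%) and 32 stepped down (0.162%). The 51 and 72 upward steps together are fewer than the 252 shared upward steps. The 90 and 32 downward steps together are more than the 112 shared downward steps. A further 318 genes stepped by at least 1 in 1 genotype and by 0.5 to 1 the same way in the other, and so belong to neither class. For 43 more the step of 0.5 to 1 in the other genotype was in the opposite direction. With a step of anything under 1 allowed in the other genotype, the counts were 146 up and 184 down in d1 only and 184 up and 92 down in WT only. Together these outnumber the 364 genes that stepped the same way in both, so which class is larger depends on the cut-off as well as the direction. The difference between the genotypes' steps has no repeat and was not tested, so none of these genes is shown to respond differently in d1 and WT. They were also less abundant: the median of the highest value in the 4 columns was 4.05 and 3.91 FPKM for d1 only (up and down) and 5.87 and 3.32 FPKM for WT only (up and down), beside 13.5 FPKM over all genes kept. For the shared steps this median was 8.83 FPKM (up), also below that of all genes kept, and 15.1 FPKM (down).

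The genes with the largest such differences varied at the earlier stages as well. OS03G0226200 (chromosome 3) had 8.19 FPKM at stage 7 against 0.599 FPKM at stage 4 in d1, and 3.87 FPKM at stage 7 against 3.64 FPKM at stage 4 in WT. OS03G0787350 (chromosome 3) was listed at 0 at stage 7 and had 7.33 FPKM at stage 4 in d1, and had 5.07 FPKM at stage 7 against 6.03 FPKM at stage 4 in WT. At stages 1 and 2 it had 12.5 and 14.99 FPKM in d1 and 7.21 and 5.52 FPKM in WT. OS09G0522500 (chromosome 9), which stepped up in WT only, was also uneven. At stages 1, 2, 4 and 7 it had 0.641, 2.79, 1.07 and 5.87 FPKM in WT. In d1 it had 0, 2.07, 0.330 and 0 FPKM. Genes picked for a step down in WT only had more even courses. OS06G0298200 (chromosome 6) had 30.2 FPKM at stage 7 against 27.2 FPKM at stage 4 in d1. In WT it had 12.8 FPKM at stage 7 against 28.8 FPKM at stage 4. OS04G0583900 (chromosome 4) had 12.1 FPKM at stage 7 against 9.17 FPKM at stage 4 in d1, and 7.94 FPKM at stage 7 against 21.7 FPKM at stage 4 in WT.

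Among the named genes, the clock gene CCA1 had unlike steps in the genotypes. CCA1 (OS08G0157600, chromosome 8), a clock transcription factor that peaks in the morning, had 44.1 FPKM at stage 7 against 43.3 FPKM at stage 4 in d1, and 201 FPKM at stage 7 against 83.9 FPKM at stage 4 in WT. Its steps were 0.02 in d1 and 1.25 in WT, so it belongs to the genes that stepped up in WT only. GI (OS01G0182600, chromosome 1), a clock gene that peaks late in the day, had smaller steps of opposite sign. It had 284 FPKM at stage 7 against 226 FPKM at stage 4 in d1. In WT it had 205 FPKM at stage 7 against 251 FPKM at stage 4. Its steps were 0.33 in d1 and -0.29 in WT, both within 1 SD of the steps over all genes (0.416 in d1 and 0.411 in WT). None of the 4 members tested in the clock, light and heading list was called by limma. The photoreceptor genes PHYB and PHYC had steps between -0.21 and 0.07 in both genotypes.

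Of 5 heat shock genes tested, 3 had a higher value at stage 7 in WT and a lower one in d1. HSFA2A (OS03G0745000, chromosome 3), a heat shock transcription factor, had 0.219 FPKM at stage 7 against 1.29 FPKM at stage 4 in d1, and 5.77 FPKM at stage 7 against 0.652 FPKM at stage 4 in WT. HSP81-1 (OS08G0500700, chromosome 8), an HSP90 chaperone gene, had 94.5 FPKM at stage 7 against 126 FPKM at stage 4 in d1, and 213 FPKM at stage 7 against 120 FPKM at stage 4 in WT. HSP26.2 (OS06G0219500, chromosome 6), a small heat shock protein gene, had 11.98 FPKM at stage 7 against 17.3 FPKM at stage 4 in d1, and 35.2 FPKM at stage 7 against 18.08 FPKM at stage 4 in WT. The d1 and WT values were close at stage 4 for HSP81-1 and HSP26.2 and apart at stage 7. They were also apart earlier, with d1 above WT: at stage 1 HSP26.2 had 57.7 FPKM in d1 and 35.9 FPKM in WT, HSP81-1 had 141 FPKM in d1 and 104 FPKM in WT, and HSFA2A had 3.84 FPKM in d1 and 0.280 FPKM in WT. The other members tested did not follow them: HSFA2D had steps of -0.35 in d1 and -0.01 in WT, and HSFC2B had 0.40 in d1 and -0.49 in WT. None of the 5 was called by limma or had an unadjusted p under 0.05, and this list was written after such genes had been seen among those that differ between the genotypes.

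**Figure D5:**
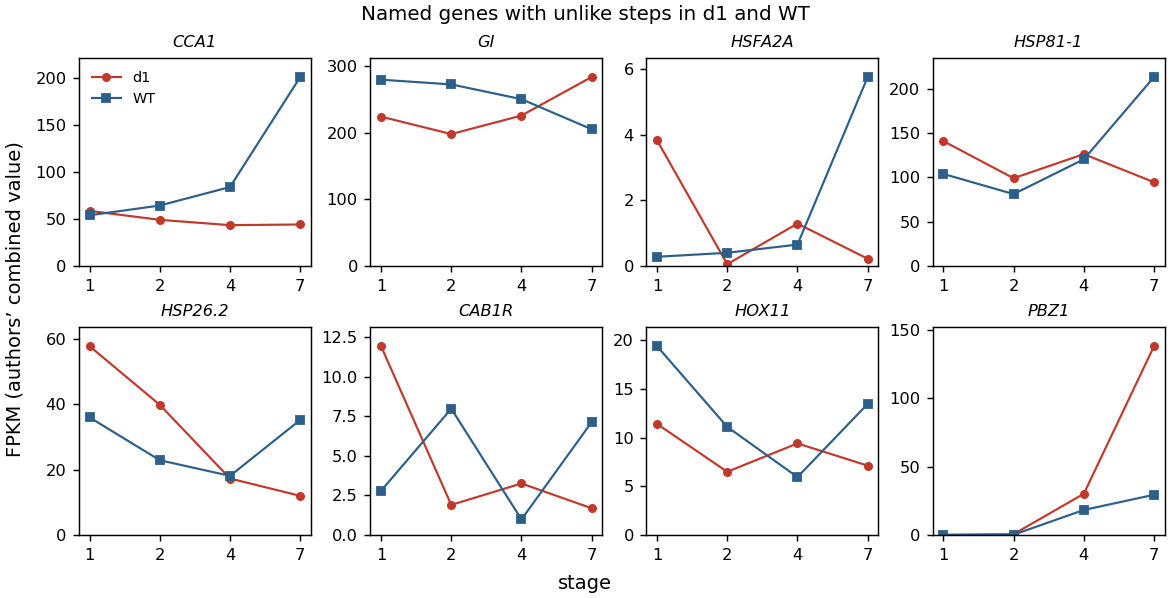
FPKM at stages 1, 2, 4 and 7 in d1 (circles) and WT (squares) for 8 named genes with unlike steps, each panel with its own linear axis from 0; they were chosen after their values were seen. CCA1 reaches 201 FPKM in WT at stage 7 and stays near 44 FPKM in d1, while PBZ1 reaches 138 FPKM in d1 and 29.4 FPKM in WT.

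Of 9 identifiers written down as markers of green tissue, most had a lower value at stage 7 in d1 and a higher one in WT. Only CAB1R had a checked name. CAB1R (OS09G0346500, chromosome 9), a chlorophyll a/b-binding protein gene, had 1.69 FPKM at stage 7 against 3.26 FPKM at stage 4 in d1, and 7.13 FPKM at stage 7 against 0.990 FPKM at stage 4 in WT. Its earlier values also crossed, with 11.9 and 1.90 FPKM at stages 1 and 2 in d1 and 2.79 and 7.97 FPKM in WT. Of the 15 identifiers written down for photosynthesis genes, 10 are in the table and 9 passed the filter, and the names of the others could not be checked. Of the 9, 8 were lower at stage 7 in d1 and 8 were higher at stage 7 in WT, with median steps of -0.66 in d1 and 0.92 in WT. The share of all genes kept that were lower in d1 and higher in WT was not counted, so these counts have no background beside them. The exceptions, named after their values were seen, were OS11G0242800 and OS08G0560900. OS11G0242800 (chromosome 11), the most abundant of them, fell in both genotypes, with 72.9 FPKM at stage 7 against 147 FPKM at stage 4 in d1, and 61.5 FPKM at stage 7 against 105 FPKM at stage 4 in WT (shared step -0.88 ± 0.15, adjusted p = 0.046, limma). OS08G0560900 (chromosome 8) was higher at stage 7 in both, with steps of 0.30 in d1 and 0.64 in WT. Their summed level over the 10 was 132 FPKM at stage 7 against 216 FPKM at stage 4 in d1, and 131 FPKM at stage 7 against 137 FPKM at stage 4 in WT, and none was listed at 0 in these columns. One of these identifiers, OS08G0435900 (chromosome 8), leads the genes that stepped up in WT only, with 7.58 FPKM at stage 7 against 10.8 FPKM at stage 4 in d1, and 7.63 FPKM at stage 7 against 1.66 FPKM at stage 4 in WT. The part of leaf tissue in the steps of single genotypes was not tested.

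A defence gene and a homeobox gene also parted. PBZ1 (OS12G0555500, chromosome 12), a pathogenesis-related gene of the PR10 family, had 138 FPKM at stage 7 against 30.2 FPKM at stage 4 in d1, and 29.4 FPKM at stage 7 against 18.4 FPKM at stage 4 in WT. At stages 1 and 2 it stayed under 1 FPKM in d1 and in WT, and its steps were 2.16 in d1 and 0.65 in WT. HOX11 (OS09G0447000, chromosome 9), a homeodomain-leucine zipper gene, had 7.13 FPKM at stage 7 against 9.41 FPKM at stage 4 in d1, and 13.5 FPKM at stage 7 against 5.96 FPKM at stage 4 in WT.

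Steps of at least 1 in opposite directions were found for 15 genes. Of these, 11 were down in d1 and up in WT (0.0557%) and 4 were up in d1 and down in WT (0.0202%). OS02G0175950 (chromosome 2) was listed at 0 at stage 7 and had 13.3 FPKM at stage 4 in d1, and had 12.7 FPKM at stage 7 and was listed at 0 at stage 4 in WT. OS12G0590700 (chromosome 12) was listed at 0 at stage 7 and had 8.75 FPKM at stage 4 in d1, and had 7.16 FPKM at stage 7 and was listed at 0 at stage 4 in WT. OS01G0884450 (chromosome 1) had 9.52 FPKM at stage 7 against 3.78 FPKM at stage 4 in d1, and was listed at 0 at stage 7 and had 4.36 FPKM at stage 4 in WT. All 3 had columns listed at 0 at stage 1 or 2 as well, and 8 of the 15 were listed at 0 in at least 1 of the 4 columns.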

How the data were processed

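The authors deposited 1 FPKM value per gene for each of 8 genotype and stage groups, combining the 2 libraries of a group (16 libraries). The unit was inferred from the tools named and the values. Per the submitters' processing notes, FastQC, Trimmomatic, TopHat2, Cufflinks and Cuffdiff were used with IRGSP-1.0; versions and the scaling between columns are not given in the sources used here. Groups come from the sample titles. Values were analysed as log2(FPKM + 1), which understates changes of low genes. The shared step was tested with limma 3.58.1 (R 4.3.3), all 8 columns, stage plus genotype, eBayes with trend, 3 residual and 2.54 prior degrees of freedom. The fit was also run on columns simulated from this same model, with equal steps added in d1 and WT. That run cannot show how the fit handles unlike steps or the spread between libraries. Counts of steps have no test.

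Identifiers for 489 named genes were written from general knowledge; NCBI's table (assembly ASM3414082v1) pairs none with a name directly. A name was used where that table has it on the same chromosome within 1 Mb of the place interpolated from the other pairs (379 identifiers; 110 are in the deposited table, 69 more there could not be checked). Members and lists were chosen with earlier results of these data known, several after values were seen. Beyond list members, the genes named have the largest mean step (same way) or difference of steps (other classes), at most 2 per direction, with at least 5 FPKM in 1 of the 4 columns; not all of these are printed. Alternatives varied the pseudocount, filter, scaling, threshold, columns and trend.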

Additional observations from a re-analysis of the deposited data

Results flagged for a closer look

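Steps in opposite directions in the genotypes were found for 15 genes, and none of these differences was tested, since each genotype has 1 value per stage. The step in d1 minus the step in WT was -7.61 for OS02G0175950, -6.31 for OS12G0590700 and 3.56 for OS01G0884450. Among the named genes, CAB1R and HSFA2A stepped by at least 0.5 in opposite directions, with a step in d1 minus that in WT of -2.69 for CAB1R and -2.95 for HSFA2A; these differences were not tested either.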

How the results depend on the processing

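No paired analysis was possible because the 2 libraries of a group share 1 combined column, so replicate numbers could neither be used as a block nor left out; the fit pairs columns by genotype only. The counts of genes called by limma were 230 higher and 167 lower with no filter on low values, 219 higher with a mean of at least 5 FPKM, 760 higher and 671 lower on the columns of stages 4 and 7 alone, and ranged over 160 to 436 higher and 157 to 386 lower when stage 1 or stage 2 was left out. With a pseudocount of 0.1 FPKM, steps of at least 1 were found for 713 genes up and 663 down in d1, 846 up and 476 down in WT, 460 up and 250 down in both, 95 up and 178 down in d1 only, 144 up and 77 down in WT only, and 63 in opposite directions. Among genes averaging at least 5 FPKM there were 129 up and 160 down in d1, 164 up and 116 down in WT, 93 up in both, 10 up and 31 down in d1 only, 24 up and 7 down in WT only, and 4 opposite. With a threshold of 2 they were 71 up and 27 down in d1, 77 up and 14 down in WT, 43 up and 9 down in both, 2 up and 6 down in d1 only, 2 up and 1 down in WT only, and 2 opposite. With any step under 1 in the other genotype, 146 up and 184 down stepped in d1 only and 184 up and 92 down in WT only. Fewer genes pass a stricter filter or threshold by construction, and the cause of the other moves was not tested. Scaling to the same median or quantile normalization moved no count by more than 1.5 times. Under these alternatives none of the 17 called and 14 uncalled genes that were followed through them changed the sign of its shared step. OS11G0242800, RR1 and RR2, which are also given with a shared step, were not followed. Of the 17, 11 stayed called under every alternative that tested them; RGG1, ARF19, LAX1, SPL7, LOGL4 and OS06G0317200 did not. For the 14, 12 of 123 values passed the threshold.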
